A study of Rattus norvegicus with 18 samples.

Results

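The aryl hydrocarbon receptor pathway is represented here by 7 genes chosen by their RefSeq gene symbol, namely the receptor *Ahr*, its repressor *Ahrr*, its partner *Arnt* and the target genes *Cyp1a1*, *Cyp1b1*, *Tiparp* and *Nqo1*. 6 of the 7 have a row in the count table of 15075 RefSeq identifiers, and *Tiparp* was not analysed here. *Ahr* and *Ahrr* were chosen because their counts were higher in bPYX+NT3 than in bPYX+GFP rats, so their values are given as a description without a test. The other members were chosen as partners and targets. Poly(A) RNA was sequenced from C6-C8 dorsal root ganglia (DRG), the ganglia that hold the cell bodies of forelimb sensory neurons, of 18 lister hooded rats. There were 6 unoperated naïve rats, 6 rats with bilateral pyramidotomy (bPYX, which cuts the corticospinal tract on either side) that received AAV1-CMV-EGFP in forelimb muscle (bPYX+GFP), and 6 rats with the same injury and AAV1-CMV-NT3 (bPYX+NT3). Both injured groups were killed 10 weeks after injury and both carried a viral vector, and each library held the whole ganglia from the treated side of 1 rat. The CMV promoter drives the transgene in any transduced cell, and no group had injury without a vector, so injury and vector cannot be told apart between bPYX+GFP and naïve rats.

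The aryl hydrocarbon receptor is a transcription factor that waits in the cytoplasm with heat shock proteins until a small molecule binds it, for example a dioxin, a dietary indole or a tryptophan metabolite. It then enters the nucleus, pairs with Arnt and binds DNA elements that hold the core GCGTG, where it induces enzymes such as Cyp1a1 and Cyp1b1. *Ahrr* is itself a target, and its product competes for Arnt and for the same elements, which closes a feedback loop. The study named *Ahr* as a factor that regulates the semaphorins *Sema4c* and *Sema7a*, which is why both were looked at beside the members.

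The core of the receptor's DNA element was searched in the 250 bases before the transcription start that RefSeq's promoter table (build GRCr8) gives each gene, because *Ahrr* is both a member and a classical target. The table holds 6 of the 7 members, *Tiparp* among them but not *Cyp1a1*. For *Cyp1b1* the window lies inside the annotated gene (chr6:21093927-21103091), past its first base, and for the other 5 it ends just before the gene's first base. The *Ahrr* window (chr1:30821969-30822218, plus strand) is shown whole because it held the most matches of the members, with each match to GCGTG in capitals.
Ahrr promoter: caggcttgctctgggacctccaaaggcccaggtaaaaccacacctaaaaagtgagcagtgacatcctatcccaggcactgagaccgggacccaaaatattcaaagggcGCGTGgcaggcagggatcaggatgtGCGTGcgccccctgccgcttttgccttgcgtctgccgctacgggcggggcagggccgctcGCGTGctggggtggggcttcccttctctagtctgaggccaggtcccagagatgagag
The first bases of its 3 matches lie 142, 117 and 57 bases before that start, and the last of these also matches the longer form TNGCGTG. In this 250 base window 25.9% of 33469 promoters held at least 1 match to GCGTG on either strand, 8.12% held at least 2 and 2.58% held at least 3. The next 4 stretches show the matches of *Cyp1b1*, *Arnt* and *Nqo1* with up to 10 bases on each side, on the strand of the gene and with the match (GCGTG, or CACGC where it reads on the other strand) in capitals.
Cyp1b1 match at 81 bases (chr6:21094474-21094498, plus strand): tcccgcccctCACGCcccacccctt
Cyp1b1 match at 20 bases (chr6:21094535-21094559, plus strand): tagagggatgGCGTGtcgcctctgg
Arnt match at 42 bases (chr2:185686651-185686675, plus strand): atggtatgggGCGTGtcttctcccc
Nqo1 match at 10 bases (chr19:52220268-52220287, minus strand): taggctgtggCACGCaggat
The *Cyp1b1* window also held 1 match to TNGCGTG, which 4.09% of all promoters did. The *Ahr* window held no match and the *Tiparp* window held 1. A match is a string of letters in this window and not a measured binding site.

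The libraries held between 10057787 and 16002410 read-pairs on genes. The group of each rat comes from the heading of the authors' count table. The counts deposited for each rat carry titles that name another group for 17 of the 18 rats, so results by those titles are given where they differ. Rats 11 (bPYX+NT3) and 57 (bPYX+GFP) stood apart from the rest, with a mean correlation with the other rats of 0.970 and 0.976 where the other rats had 0.982 to 0.988, and their share of read-pairs on no gene was the lowest of the 18 (30.8% and 31.7%, against 32.5% to 34.6%). Neuronal, Schwann cell, satellite glial, fibroblast, endothelial, pericyte, macrophage and mast cell markers were all counted, as a whole ganglion would give, although *Snap25*, a neuronal synaptic gene, and *Runx3*, a marker of proprioceptive neurons, were listed at 0 in at least 1 rat. *Ntrk3*, another listed marker of proprioceptive neurons, and *Col1a2*, one of fibroblasts, had no row in the count table. In a bulk sample fewer cells of a type and less RNA per cell cannot be told apart.

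*Ahr* was lowest in the bPYX+GFP group. Its normalized count (reads scaled to the mean library size over TMM factors) was 302 at the lowest, 355 at the median and 434 at the highest in naïve rats. In bPYX+GFP rats it was 287, 325 and 376. In bPYX+NT3 rats it was 345, 376 and 461. With NT3 all 6 rats exceeded the median of the GFP group and 3 of them exceeded each of its rats, while 5 of 6 rats with GFP were under the median of naïve rats. The means were 367 ± 50.1 in naïve rats, 324 ± 31.9 with GFP and 385 ± 42.9 with NT3 (SD, n = 6 each), so the order was bPYX+NT3, naïve, bPYX+GFP, and each neighbouring pair in this order overlapped. As a log2 fold change (± SE) bPYX+NT3 differed from bPYX+GFP by 0.25 ± 0.09, with -0.17 ± 0.10 between bPYX+GFP and naïve and 0.07 ± 0.10 between bPYX+NT3 and naïve. Leaving out any 1 rat kept the first of these between 0.19 and 0.30, and leaving out rats 11 and 57 gave 0.27 ± 0.10. With the rats grouped by the recorded titles it was -0.09.

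*Ahrr*, the repressor of the receptor, had few reads, between 19 and 54 per rat. Its normalized count was 24.6 at the lowest, 35.3 at the median and 41.6 at the highest in naïve rats. In bPYX+GFP rats it was 24.1, 25.9 and 30.4. In bPYX+NT3 rats it was 30.5, 34.4 and 42.3. The bPYX+NT3 and bPYX+GFP rats did not overlap, though the lowest of the former and the highest of the latter (30.45 and 30.36) differed by far less than counting error, and naïve rats spanned nearly the range of both. The rule used this contrast, and the share of all genes without overlap between these groups was not counted, so nothing is read from the separation. By another measure, 1.73% of all 11623 genes tested between these groups had an unadjusted p under 0.05 (edgeR's quasi-likelihood test). Of these genes 0 had an adjusted p under 0.05. The spread in bPYX+GFP rats (SD 2.25) was smaller than counting error alone would give (5.15), whereas in naïve rats the SD of 6.67 was above it (5.81). As a log2 fold change (± SE) bPYX+NT3 differed from bPYX+GFP by 0.38 ± 0.14, with -0.35 ± 0.16 between bPYX+GFP and naïve and 0.02 ± 0.16 between bPYX+NT3 and naïve. Leaving out any 1 rat moved the first between 0.31 and 0.42 and the third between -0.04 and 0.10, and leaving out rats 11 and 57 gave 0.35 ± 0.16. By the recorded titles the first was -0.14 and the second 0.20. All 3 comparisons share rats, so that a low bPYX+GFP group enters both the first and the second.

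**Figure D1:**
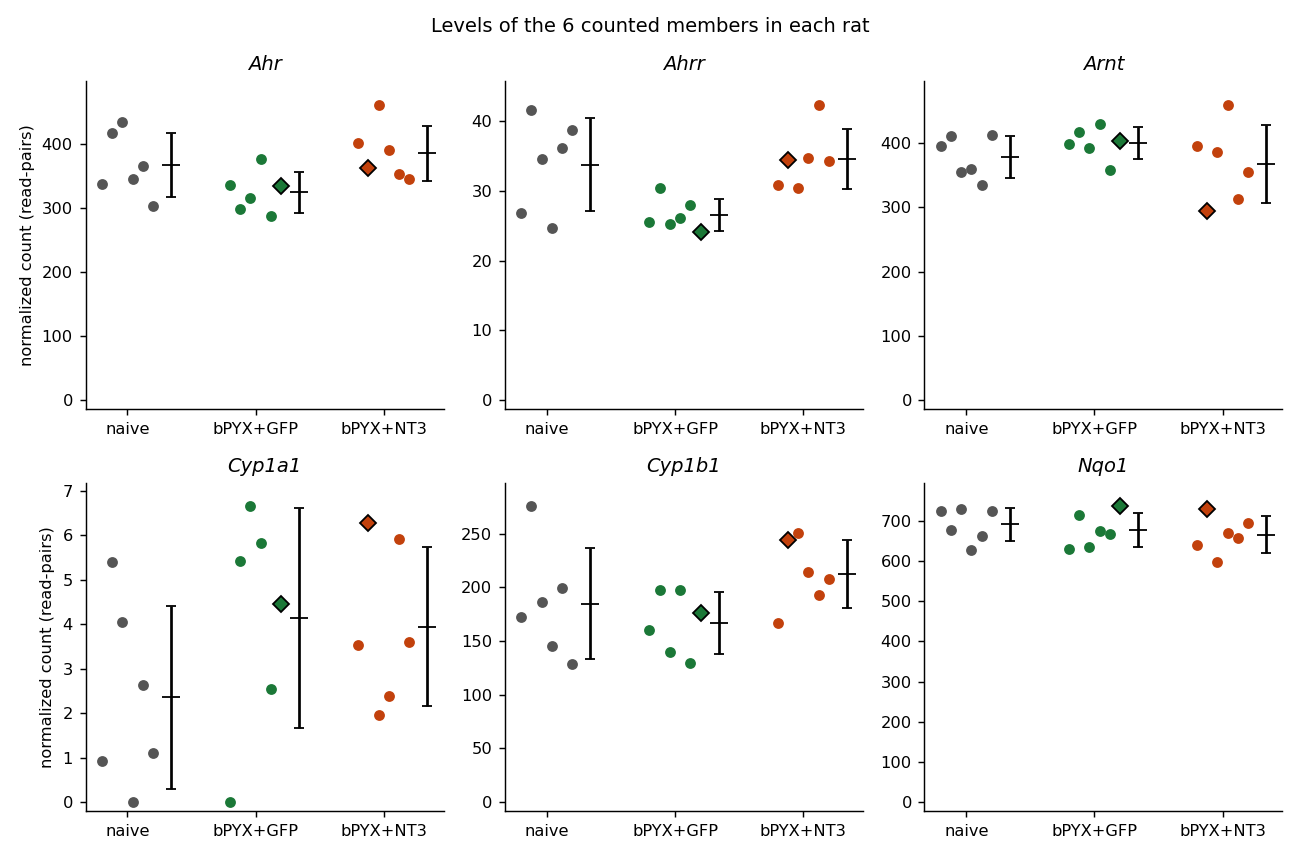
Normalized counts (read-pairs, linear axes from 0) of the 6 counted members in each rat by group, with the group mean ± SD (n = 6) as a bar beside the points and rats 11 and 57 as outlined diamonds. *Ahr* and *Ahrr* are lowest in bPYX+GFP rats (means 324 and 26.6), *Arnt* and *Nqo1* overlap in all groups, and *Cyp1a1* lies at 0 to 6.65.

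*Arnt*, the partner that the receptor needs to bind DNA and shares with the hypoxia factors, did not pass the test in any comparison. Its normalized count ran from 334 to 413 in naïve rats (median 377), from 358 to 429 in bPYX+GFP rats (median 401) and from 294 to 459 in bPYX+NT3 rats (median 370). The bPYX+NT3 rats were the most spread of the 3 groups (SD 60.2, against 24.5 and 32.7), holding both the lowest and the highest rat, and rat 11 was the lowest. Between bPYX+NT3 and bPYX+GFP the log2 fold change was -0.13 (95% interval -0.35 to 0.09), with an edgeR quasi-likelihood p of 0.236 and a two-sided exact permutation p of 0.214. Between bPYX+GFP and naïve it was 0.08 (-0.07 to 0.24, exact permutation p = 0.225), and between bPYX+NT3 and naïve -0.05 (-0.27 to 0.18, exact permutation p = 0.621). Without rat 23, the highest of the bPYX+NT3 rats, the first was -0.20 with an edgeR p of 0.05.

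*Cyp1b1*, a cytochrome P450 that metabolises oestrogens and polycyclic hydrocarbons and is made largely by stromal and vascular cells, was higher in bPYX+NT3 than in bPYX+GFP rats at the unadjusted threshold only. Its normalized count was 128 at the lowest, 180 at the median and 276 at the highest in naïve rats. In bPYX+GFP rats it was 129, 168 and 198. In bPYX+NT3 rats it was 167, 211 and 251. 4 of 6 bPYX+NT3 rats lay above every bPYX+GFP rat and 5 of 6 above their median, while naïve rats spanned both groups. The log2 fold change was 0.35 ± 0.13 (SE), a 1.27-fold difference, with an edgeR quasi-likelihood p of 0.022, an adjusted p of 0.851 over all genes tested and a two-sided exact permutation p of 0.0303. It was the only one of the 3 testable members (*Arnt*, *Cyp1b1* and *Nqo1*) with p under 0.05 in this comparison. Of all 11623 genes tested 1.73% had such an edgeR p. Without rat 18, rat 52 or rat 17 the edgeR p was 0.0508, 0.0505 and 0.0531, and without rats 11 and 57 it was 0.0409 at a fold change of 0.31. By the recorded titles the fold change turned to -0.37 with an edgeR p of 0.018. Against naïve rats *Cyp1b1* did not pass the test. The difference was -0.15 (95% interval -0.52 to 0.23, exact permutation p = 0.541) with GFP and 0.20 (-0.16 to 0.55, exact permutation p = 0.227) with NT3. Naïve rat 42 (276) was the highest of all 18, and without it the second of these was 0.35 with an edgeR p of 0.0247.

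*Cyp1a1*, the enzyme most used as a readout of receptor activity, had hardly any reads. It had 65 reads in the 18 rats together, from 0 to 8 per rat and from 0 to 6.65 as normalized counts. It was listed at 0 in 1 naïve rat (rat 44) and 1 bPYX+GFP rat (rat 5), where a count of 0 allows up to 0.290 and 0.284 CPM (reads scaled to a common library size), counting error only. The group totals were 16 reads in naïve rats, 23 with GFP and 26 with NT3. It did not pass the filter on low counts (more than 10 reads in at least 6 of 12 rats), and no difference was detectable at this depth (two-sided exact permutation p = 0.275 for bPYX+GFP and 0.152 for bPYX+NT3 against naïve rats, and 0.929 between the injured groups).

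*Nqo1*, a quinone reductase induced both by the receptor and by the oxidative stress factor Nrf2, did not pass the test in any comparison either. Its normalized count ran from 629 to 729 in naïve rats (median 702), from 630 to 736 in bPYX+GFP rats (median 672) and from 597 to 731 in bPYX+NT3 rats (median 664). All 3 groups overlapped over most of their range, and the SD was 6.03% to 6.89% of the mean. The log2 fold change was -0.02 between bPYX+NT3 and bPYX+GFP (95% interval -0.17 to 0.12, exact permutation p = 0.665), -0.03 between bPYX+GFP and naïve (-0.16 to 0.10, exact permutation p = 0.552) and -0.06 between bPYX+NT3 and naïve (-0.19 to 0.08, exact permutation p = 0.312). In each comparison this interval was narrower than those of *Arnt* and *Cyp1b1*.

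**Figure D2:**
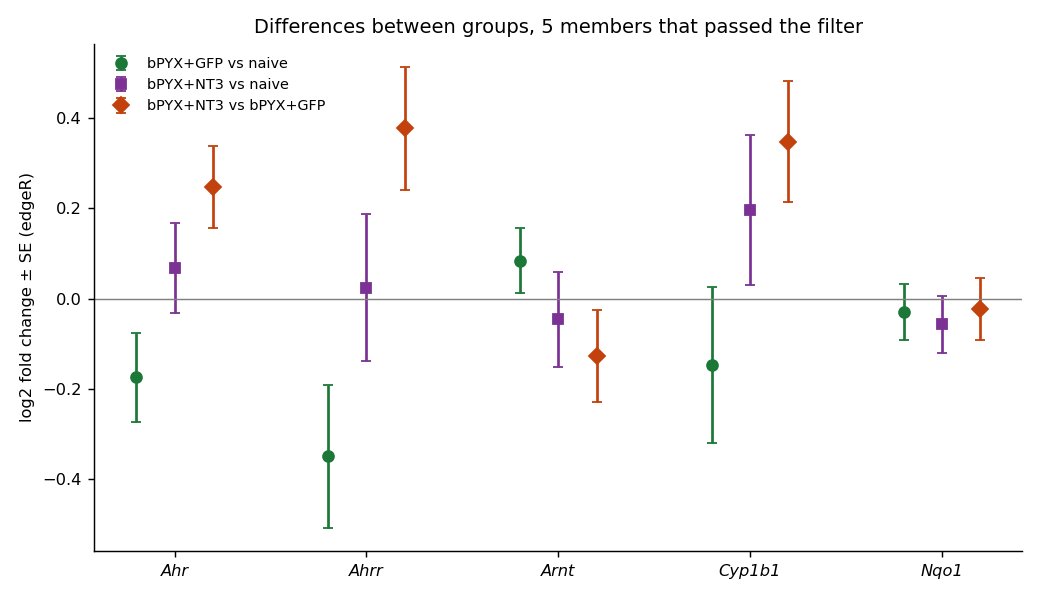
Log2 fold change ± SE (edgeR, vertical axis) of the 5 members that passed the filter in the 3 comparisons, each with 6 rats a group. In bPYX+NT3 against bPYX+GFP *Ahr*, *Ahrr* and *Cyp1b1* lie at 0.25, 0.38 and 0.35 and *Arnt* and *Nqo1* at -0.13 and -0.02, and *Ahr* and *Ahrr* were chosen by this comparison.

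Whether members moved together was asked within the groups, by removing each group's mean from the log2 CPM values of the 18 rats, so that the difference that chose *Ahr* and *Ahrr* plays no part. Of 7 relations, that of *Ahr* with *Cyp1b1* was the closest, with a Pearson r of 0.602 (permutation p = 0.0193, adjusted p = 0.135) and a Spearman rho of 0.531 (permutation p = 0.0345, adjusted p = 0.242). It did not pass the threshold after adjustment over the 7. Leaving out the 2 rats farthest from the *Ahr* median gave r = 0.620 (permutation p = 0.0321), and leaving out rats 11 and 57 gave r = 0.649 (permutation p = 0.0155). Within the groups of 6 rats r was 0.786 in naïve rats, 0.552 with GFP and 0.265 with NT3.

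*Ahr* and *Ahrr*, receptor and repressor, showed no such relation once group means were removed. Their Pearson r was -0.101 (permutation p = 0.749, adjusted p = 0.749) and their Spearman rho -0.298 (permutation p = 0.267). Without the 2 rats farthest from the *Ahr* median r was -0.0384. It was 0.291 in naïve rats, -0.566 with GFP and -0.692 with NT3. The other 5 relations, of *Ahr* with *Arnt* and *Nqo1* and of *Ahrr* with *Arnt*, *Cyp1b1* and *Nqo1*, had r between -0.296 and 0.280 and adjusted permutation p of at least 0.550.

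**Figure D3:**
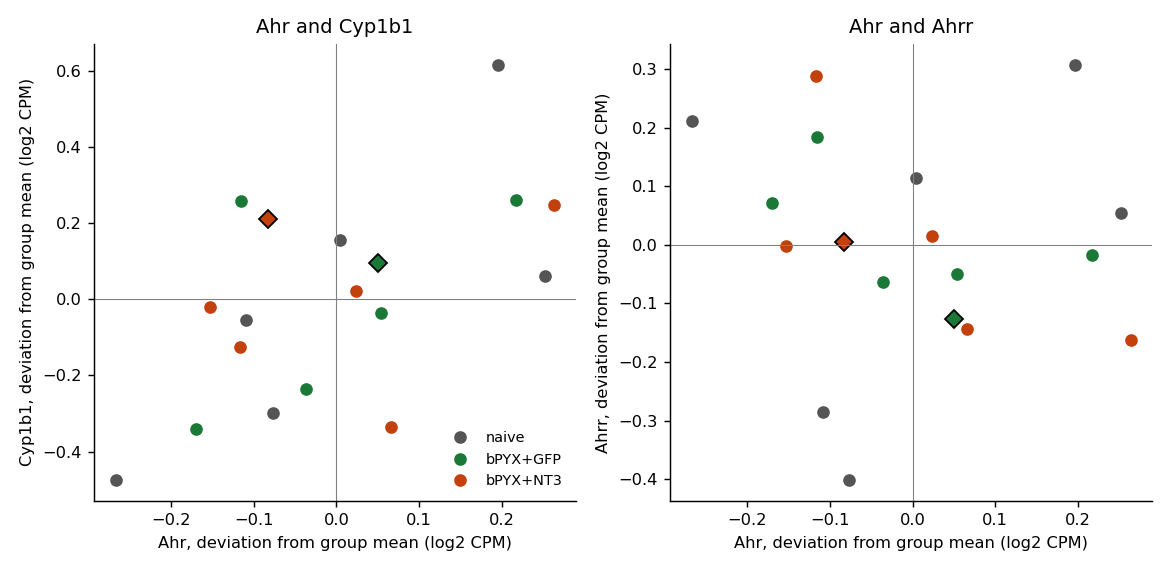
Deviation of *Cyp1b1* (left, vertical axis) and *Ahrr* (right, vertical axis) from the group mean against that of *Ahr* (horizontal axis), in log2 CPM, 1 point per rat coloured by group and rats 11 and 57 as outlined diamonds. Across the 18 rats r is 0.602 for *Cyp1b1* (adjusted permutation p = 0.135) and -0.101 for *Ahrr*.

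Levels of some cell type markers moved with *Cyp1b1* in the same within-group view. In 24 relations (these 2 genes with 12 marker lists, chosen after the values were seen), *Cyp1b1* went with the summed CPM of 4 satellite glial markers (r = 0.786, permutation p = 0.00026, adjusted p = 0.0036, Spearman rho 0.804 with permutation p = 0.00015) and of 5 macrophage markers (r = 0.773, permutation p = 0.0003, adjusted p = 0.0036, Spearman rho 0.763 with permutation p = 0.00083). Without rats 11 and 57 the r were 0.782 and 0.827, and without the 2 rats farthest from the median of each list 0.765 and 0.756. With pericyte and smooth muscle markers *Cyp1b1* had r = 0.592 (permutation p = 0.0227, adjusted p = 0.091, Spearman rho 0.422 with permutation p = 0.0904), and with sensory neuron markers r = -0.497 (permutation p = 0.051, adjusted p = 0.153, Spearman rho -0.439 with permutation p = 0.0891). Without the 2 farthest rats these were 0.209 and -0.192, and without rats 11 and 57 they were 0.594 and -0.712. No relation of *Ahr* passed after adjustment, the closest being with endothelial markers (r = 0.595, permutation p = 0.0144, adjusted p = 0.091, Spearman rho 0.614 with permutation p = 0.014). Next came pericyte and smooth muscle markers (r = 0.589, permutation p = 0.0191, Spearman rho 0.641 with permutation p = 0.00846) and macrophage markers (r = 0.580, permutation p = 0.0192, Spearman rho 0.569 with permutation p = 0.0237). Without the 2 rats farthest from each list's median these 3 fell to 0.451, 0.329 and 0.353, so they rest in part on those rats. Leaving those out raised the r of *Ahr* with proprioceptive neuron markers from 0.181 to 0.595 and with T cell markers from 0.246 to 0.584. The proprioceptive sum held 4 of its 5 listed markers, without *Ntrk3* and with *Runx3* at 0 in at least 1 rat. With sensory neuron markers *Ahr* had r = -0.512 (permutation p = 0.0501, adjusted p = 0.153). That r was -0.188 without the 2 farthest rats and -0.556 without rats 11 and 57.

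Between groups the same lists did not separate. The summed satellite glial markers ranged from 517 to 603 CPM in naïve rats, 502 to 588 with GFP and 472 to 564 with NT3, and the macrophage markers from 91.9 to 164, 68.3 to 140 and 86.0 to 167. Their medians were no higher in bPYX+NT3 rats (538 and 105) than in bPYX+GFP rats (552 and 110). The 6 pericyte and smooth muscle markers had a median of 177 CPM in bPYX+NT3 (range 132 to 248), 145 in bPYX+GFP (123 to 201) and 148 in naïve rats (128 to 256). No marker of these 3 lists was at 0 in any rat, and the part of these cells in the *Cyp1b1* difference was not tested.

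Over all 18 rats, group differences included, the genes whose log2 CPM pattern was most like that of *Ahr* among 11821 genes were *Pheta2* (Pearson r = 0.838), *Sbsn* (0.818), *Cdk10* (0.794), *Bach1* (0.770) and *Pmfbp1* (0.766). Without rats 11 and 57 these 5 had r between 0.769 and 0.868. For *Ahrr* they were *Il1rl2* (0.672), *Cemip2* (0.647), *Lta4h* (0.646), *Enkur* (0.627) and *Mark3* (0.613), with 0.582 to 0.730 without those rats. The values come from the same libraries and were picked as the highest, so they describe likeness only. No gene is on both lists, and *Ahrr* itself rests on 19 to 54 reads a rat.

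The genes around the receptor were taken from 10 lists of 80 further genes with a row in the count table, from its chaperones to its targets. Between bPYX+GFP and naïve rats 5 of 66 tested (7.58%) had an edgeR p under 0.05, where 3.25% of all 11601 genes did. Between bPYX+NT3 and naïve rats 5 of 67 did (7.46%), against 6.01% of 11693 genes. Between bPYX+NT3 and bPYX+GFP rats 2 of 67 did (2.99%), against 1.73% of 11623 genes. The lists were chosen with earlier results of these data known, so these shares are not independent of them. With edgeR's quasi-likelihood test 0 genes of any comparison had an adjusted p under 0.05, and the smallest adjusted p over all genes were 0.201, 0.607 and 0.851 in the same order. DESeq2 and the likelihood ratio test gave 16 and 13 such genes between bPYX+GFP and naïve rats, of which 0 were list genes or members, and 0 in the other comparisons. The median log2 fold change of the tested list genes was 0.02, 0.01 and 0.03, beside 0.01, 0.00 and 0.00 over all genes.

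Of a list of other genes known to be induced by the receptor, 3 of 14 tested passed between bPYX+GFP and naïve rats, where 3.25% of all genes did, and 1 was higher and 2 lower (85 and 292 over all genes). The study had already called *Id1* and *Cdkn1a* on these rats at p under 0.05, in this comparison and in bPYX+NT3 against bPYX+GFP. The list was chosen with earlier results known, so the share that passed is not independent of these data. *Id1*, an inhibitor of helix-loop-helix transcription factors, rose by 0.61 ± 0.18 (SE, edgeR p = 0.00492, exact permutation p = 0.00649). Its normalized count was 35.0 to 69.5 in naïve and 63.5 to 113 in bPYX+GFP rats, and 4 of 6 bPYX+GFP rats lay above every naïve rat. In bPYX+NT3 rats it was 44.1 to 77.8, lower than in bPYX+GFP rats by a log2 fold change of -0.45 ± 0.18 (edgeR p = 0.0276, exact permutation p = 0.0411), and without rat 15, 57, 2 or 40 the edgeR p was 0.0590 to 0.0712. *Bach1*, a repressor of antioxidant genes whose pattern was among the most like *Ahr*, fell by 0.28 ± 0.08 on the log2 scale in bPYX+GFP rats (edgeR p = 0.00521, exact permutation p = 0.00649), with 226 to 316 normalized counts against 304 to 370 in naïve rats. In bPYX+NT3 rats it was 268 to 424 and its difference from bPYX+GFP rats was 0.21 (95% interval -0.04 to 0.46, exact permutation p = 0.0974). Without rat 17, the bPYX+NT3 rat at 424, this difference was 0.10, and that between bPYX+NT3 and naïve rats went from -0.07 to -0.17 with an edgeR p of 0.0405. *Cdkn1a*, the cell cycle inhibitor p21, fell by 0.45 ± 0.18 in bPYX+GFP rats by edgeR (p = 0.023, and 0.0621 and 0.0541 without rat 42 or 45) but not by the exact permutation test (p = 0.0628). Its difference between bPYX+NT3 and bPYX+GFP was 0.49 (95% interval -0.0028 to 0.98) with an edgeR p of 0.0512 and an exact permutation p of 0.154, and the edgeR p was 0.0114 to 0.0476 without rat 5, 23 or 40 and 0.142 without rat 11. The study's own edgeR analysis called this difference at p under 0.05, and the study listed *Cdkn1a* and *Id1* as normalized by NT3. *Cdkn1b*, the cell cycle inhibitor p27, was the gene of the same list that passed between bPYX+NT3 and naïve rats, 0.22 ± 0.10 lower (edgeR p = 0.0359, exact permutation p = 0.0498), and without rat 44, 49, 2, 11 or 17 the edgeR p was 0.0587 to 0.0929.

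Of the phase II enzymes and transporters, which conjugate and export foreign compounds, *Abcg2* was lower in both injured groups. This efflux pump of vessels and stem cells had 830 to 1142 normalized counts in naïve rats, 667 to 967 with GFP and 569 to 921 with NT3. It fell by 0.37 ± 0.09 on the log2 scale in bPYX+GFP (edgeR p = 0.00165, exact permutation p = 0.00866) and by 0.46 ± 0.12 in bPYX+NT3 rats (edgeR p = 0.0014, exact permutation p = 0.00649), and all 6 rats of each injured group lay below the naïve median. Both comparisons use the same naïve rats, and the injured groups differed by -0.09 (95% interval -0.34 to 0.16, exact permutation p = 0.470). *Gsta4*, a glutathione transferase for products of lipid peroxidation, fell by 0.18 ± 0.06 in bPYX+NT3 rats (edgeR p = 0.0127, exact permutation p = 0.0108). Reads shared with near-identical family members were left out of its counts. Between bPYX+GFP and naïve rats its difference was -0.13 (95% interval -0.26 to 0.0022) with an edgeR p of 0.0534 and an exact permutation p of 0.0325, and the edgeR p was 0.0252 and 0.0263 without rat 45 or 15. The injured groups differed by -0.05 (-0.19 to 0.09, exact permutation p = 0.364). Between bPYX+GFP and naïve rats 1 of 7 tested phase II genes passed, where 3.25% of all genes did. Between bPYX+NT3 and naïve rats 2 of 7 did, against 6.01% of all genes. Between the injured groups 0 of 7 did, against 1.73% of all genes. The other 5 tested genes of the list did not pass in any comparison. The phase I list beside the members gave 0 called of 3 or 4 tested, beside the same shares of all genes.

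In the Nrf2 arm, which shares *Nqo1* with the receptor, 1 of 12 genes passed in each comparison, where 3.25%, 6.01% and 1.73% of all genes did. *Gclc*, the catalytic subunit of the first enzyme of glutathione synthesis, rose by 0.14 ± 0.06 in bPYX+GFP over naïve rats (edgeR p = 0.0275, exact permutation p = 0.00649) and was lower in bPYX+NT3 than in bPYX+GFP rats, by -0.15 ± 0.06 (edgeR p = 0.0233, exact permutation p = 0.0173). Its normalized counts were 1083 to 1331 in naïve rats, 1319 to 1444 with GFP and 1126 to 1362 with NT3, and the shared bPYX+GFP group had the narrowest spread (SD 46.0, against 87.2 and 94.9). The edgeR p of the first lay between 0.0525 and 0.0662 without rat 42, 43 or 15, and that of the second between 0.0554 and 0.0766 without rat 15, 21 or 2. *Keap1*, the adaptor that targets Nrf2 for degradation, was higher in bPYX+NT3 than in naïve rats by 0.32 ± 0.15 by edgeR (p = 0.0427) but not by the exact permutation test (p = 0.0628). It was highest in rat 11 (446 normalized counts) and next highest in rat 57 (415), and without rat 11 the edgeR p was 0.117. The edgeR p was also above 0.05 without rat 43, 44, 45, 49, 2 or 40 (0.0534 to 0.0907). The lists of receptor chaperones, Arnt partners, coregulators, receptor degradation and ligand formation, with 28 genes tested, gave 0 called in each comparison beside the same shares of all genes.

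Counts in these lists and over all genes moved when rat 57 was left out, while those without rat 11 did not always move alike. With *Arnt*, *Cyp1b1* and *Nqo1* added, 3 of 70 genes were called between bPYX+NT3 and bPYX+GFP rats (*Cyp1b1*, *Id1* and *Gclc*). Without rat 57 it was 16 of 70 (22.9%), of which 12 were higher, while 19.8% of all genes were called. Without both rats it was 13 of 66 (19.7%) beside 12.7% of all genes. Without rat 11 alone it was 3 of 69 (4.35%), the same 3 genes as with all rats, beside 0.822% of all genes. *Cyp1b1* and *Gclc* were called both with and without these rats. Between bPYX+GFP and naïve rats 7 of 68 were called without rat 57, beside 5.16% of all genes, and between bPYX+NT3 and naïve rats 3 of 70 without rat 11, beside 3.14% of all genes. No list gene had an adjusted p under 0.05 in these fits.

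**Figure D4:**
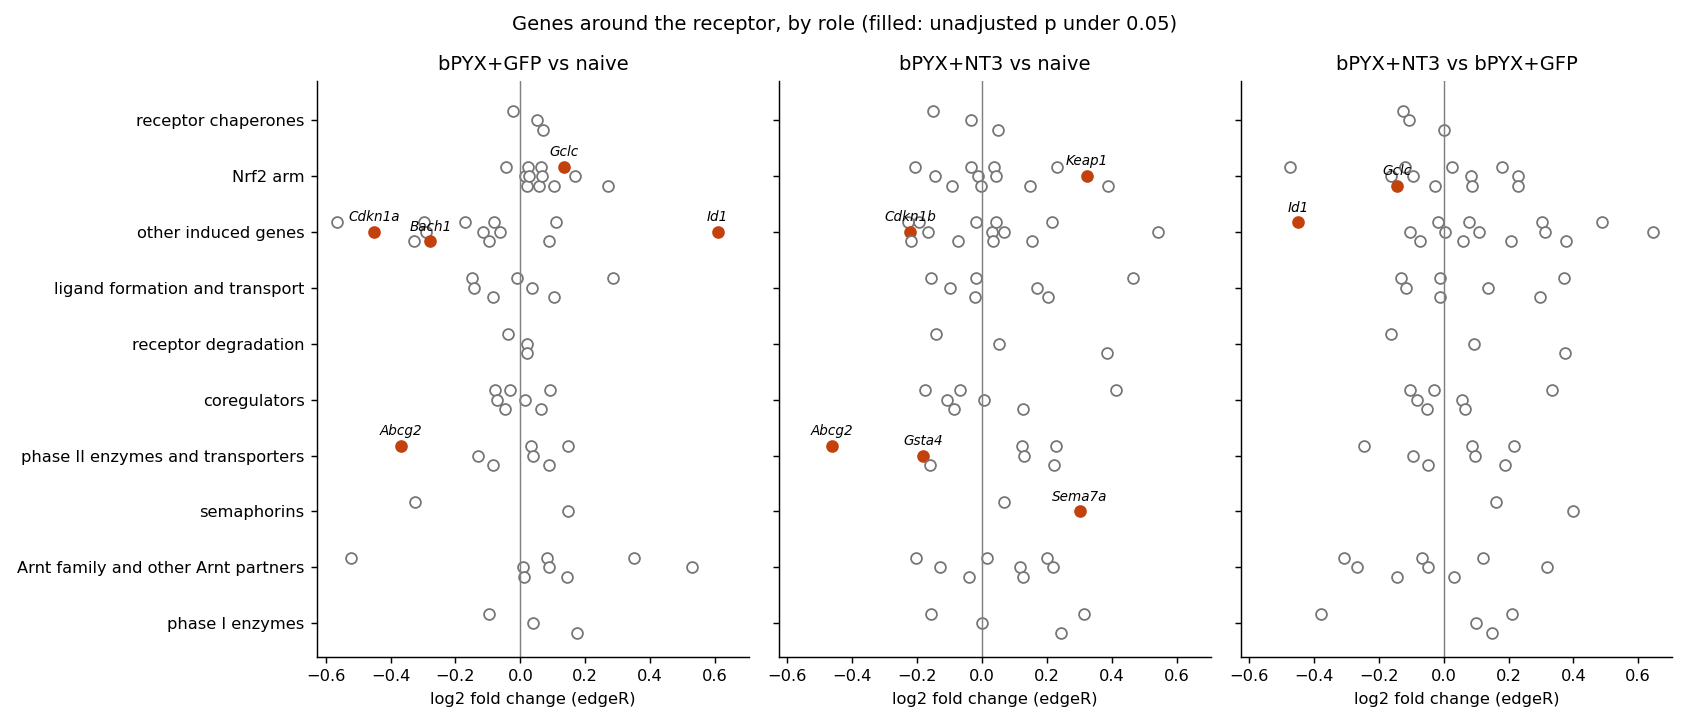
Log2 fold change (edgeR, horizontal axes) of each tested gene of the 10 lists (rows) in the 3 comparisons, 6 rats a group, with filled and named points for an unadjusted p under 0.05. The filled points number 5, 5 and 2, on both sides of 0 in the comparisons with naïve rats and below 0 (*Id1* and *Gclc*) in bPYX+NT3 against bPYX+GFP.

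The semaphorins that the study linked to *Ahr* were chosen by it on these rats, so their values are not independent evidence of a direction. The study's own edgeR analysis called *Sema4c* at p under 0.05 in bPYX+GFP against naïve and in bPYX+NT3 against bPYX+GFP rats. It also reported brighter Sema4C staining with NT3 in TrkC-positive neurons of the ulnar nerve, a measure of protein and not of RNA. The edgeR p-values given here are of the quasi-likelihood test. *Sema4c*, a membrane ligand of plexin B receptors, had 283 at the lowest, 341 at the median and 453 at the highest in naïve rats. In bPYX+GFP rats it was 239, 253 and 411. In bPYX+NT3 rats it was 260, 369 and 481. Rat 57 was the bPYX+GFP rat at 411, with the other 5 at 295 or less, and bPYX+NT3 rats fell into a high and a low set of 3. Rats 17, 11, 42, 2, 41 and 57, of all 3 groups, had the highest *Sema4c* (411 to 481). The same rats scored highest on the first principal component, the main axis of difference among the rats over all genes compared (45.8% of variance). The part of this axis in the *Sema4c* differences was not tested. Between bPYX+NT3 and bPYX+GFP the log2 fold change was 0.40 ± 0.19 (edgeR p = 0.0566, exact permutation p = 0.0714), and without rat 57 it was 0.54 with an edgeR p of 0.00686. Between bPYX+GFP and naïve rats it was -0.32 ± 0.16 (edgeR p = 0.065, exact permutation p = 0.0758), and -0.47 with an edgeR p of 0.00285 without rat 57. Without rat 11 the former was 0.31 with an edgeR p of 0.129, and without rats 11 and 57 it was 0.46 with an edgeR p of 0.0135. No leaving out of 1 rat gave an edgeR p above 0.131 for the former or above 0.15 for the latter. Leaving out rat 23, 39 or 40 also brought the edgeR p of the former under 0.05 (0.0220 to 0.0387), as leaving out rat 44 or 45 did for the latter (0.0391 and 0.0396).

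*Sema7a*, a membrane-anchored semaphorin that binds plexin C1 and integrins, had a median of 1296 in naïve (range 1107 to 1406), 1209 in bPYX+GFP (1119 to 2180) and 1541 in bPYX+NT3 rats (1291 to 1968). It was higher in bPYX+NT3 than in naïve rats by 0.30 ± 0.10 (edgeR p = 0.0108, adjusted p = 0.607, exact permutation p = 0.039), and it remained so without rat 11 (0.23, edgeR p = 0.0259). Against bPYX+GFP rats the difference was 0.16 (95% interval -0.21 to 0.53, exact permutation p = 0.323), and without rat 57, which was again the highest of its group, it was 0.33 with an edgeR p of 0.017, whereas without rat 11 it was 0.08 with an edgeR p of 0.652. Between bPYX+GFP and naïve rats it was 0.15 (95% interval -0.18 to 0.48, exact permutation p = 0.621) and without rat 57 it was -0.03, with 4 of 6 bPYX+GFP rats under the naïve median.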

How the data were processed

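The authors' reads were mapped by TopHat2 (Rnor_6.0), cleared of duplicates by Picard and counted per RefSeq identifier by HTSeq, and the deposited values are whole read counts without normalization. Demultiplexing used bcl2fastq 1.8.4 per the labels. Library sizes leave out the 53.9% to 59.1% of read-pairs per rat that were unassigned (off genes, ambiguous or at several locations). Rats were grouped by the heading of the count table.

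A gene entered a fit with over 10 reads in 6 or more of its 12 rats, in edgeR 4.0.16 (R 4.3.3; TMM, estimateDisp, glmQLFit, glmQLFTest), 2 groups a fit, and p-values were adjusted by Benjamini-Hochberg across every gene in the fit. For single genes the log2 CPM (prior count 2) also entered an exact permutation test, two-sided (the smallest p that 6 against 6 rats allow is 0.00216). Relations used 100000 permutations within groups. Counting intervals cover counting error only. The fits were tested on simulated data.

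Members and lists were chosen with earlier results of these data known. Named are all members, each list gene with an unadjusted edgeR p under 0.05 in a comparison (9 genes), *Sema4c* and *Sema7a* in any case, and the 5 genes most like *Ahr* and *Ahrr*. 1 gene of the lists is not reported here and was left out of their counts. Strand setting of the counting is not given in the sources used here. No transcript lengths were used, so levels are not compared between genes. Alternatives were library size alone, DESeq2 1.42.0 or its size factors, the likelihood ratio test of edgeR, other filters, 1 fit over 3 groups, robust estimation, the recorded titles, a replicate block, a prior count of 0.5 and leaving out each rat. Leaving out rats 11 and 57 together was chosen after seeing the data. Python 3.11.15 with scipy 1.17.1 was used for permutations.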

Additional observations from a re-analysis of the deposited data

Results flagged for a closer look

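Among 16 genes in 3 groups of 6 rats, 5 of 48 sets of values had 1 rat whose gap to its neighbour, as a share of the group's range, passed the 95% value of Dixon's test, which chance does in about 1 in 20. *Ahrr* was 42.3 normalized counts in bPYX+NT3 rat 39, with the other 5 rats at 30.5 to 34.7. *Bach1* was 424 in bPYX+NT3 rat 17, against 268 to 311 in the others. *Abcg2* was 830 in naïve rat 41, below the 1028 to 1142 of the others. In bPYX+GFP rat 57 *Keap1* was 415 (others 211 to 272) and *Sema4c* was 411 (239 to 295). Rat 57 holds 2 of the 5 values, and the part of library quality in them was not tested.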

How the results depend on the processing

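Of 165 recomputed log2 fold changes of *Ahr*, *Ahrr*, *Arnt*, *Cyp1b1* and *Nqo1* under other settings, 152 kept their direction and 13 turned. By the recorded titles it turned for *Ahr* (0.0217, -0.0733 and -0.0937), *Cyp1b1* (0.11, -0.26 and -0.37) and *Nqo1* (0.0477, 0.0711 and 0.0235) in bPYX+GFP against naïve, bPYX+NT3 against naïve and bPYX+NT3 against bPYX+GFP, and for *Ahrr* in the first and last of these (0.20 and -0.14). With library size alone *Nqo1* was 0.0113 between the injured groups, its relation with *Ahr* turned to r = 0.152 and that of *Ahr* with *Ahrr* to 0.0333, and 1 of 7 relations passed after adjustment (*Ahr* with *Cyp1b1*) where 0 did otherwise. Without rats 11 and 57 *Arnt* was 0.0119 between bPYX+NT3 and naïve. Leaving out each rat in turn kept the direction of 173 of 180 values. The 7 others were *Ahrr* in bPYX+NT3 against naïve (-0.0351, -0.0415 and -0.038 without rat 41, 44 or 39), *Cyp1b1* in bPYX+GFP against naïve (-0.23 to 0.0007, the latter without rat 42), *Arnt* in bPYX+NT3 against naïve (-0.12 to 0.0119, the latter without rat 11) and *Nqo1* between the injured groups (-0.0577 to 0.008, above 0 without rat 57 or 17). Only *Arnt*, *Cyp1b1* and *Nqo1* carried a test in these fits, 12 for each gene and comparison. Their tests changed side of the threshold in 5 fits, 4 of *Cyp1b1* and 1 of *Arnt*. The causes were not tested.

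Genes called among list genes and members, with *Ahr* and *Ahrr* left out, numbered 5 between bPYX+GFP and naïve rats (8 with library size alone, 1 by the titles, 4 to 9 leaving out each rat, 9 without rat 52). Over all genes 377 were called there, with 415, 174, 272 to 595 and 454 in the same order. They numbered 5 between bPYX+NT3 and naïve rats (2 with 1 fit over 3 groups, 3 by the titles and without rats 11 and 57, and 3 to 10 leaving out each rat, 10 without rat 41 or 39, 9 without rat 42 and 3 without rat 44, 49, 2 or 11). Over all genes 703 were called there, with 586, 330 and 365 under the first settings named and 365 to 1387 leaving out each rat. Without rat 41, 39 or 42 it was 1185, 1024 and 1032. Without rat 44, 49, 2 or 11 it was 399, 395, 433 and 365. Between the injured groups they numbered 3 (5 with the likelihood ratio test, DESeq2, no filter or 1 fit, 13 without rats 11 and 57, and 1 to 16 leaving out each rat, 1 without rat 15, 7 without rat 23 and 16 without rat 57). Over all genes 201 were called there, with 184, 211, 315 and 266 under the first settings named. It was 1462 without rats 11 and 57, 95 to 2291 leaving out each rat and 112 without rat 15. Calls over all genes also moved, from 201 to 2291 between the injured groups without rat 57, but they did not follow the same rats throughout. Between bPYX+NT3 and naïve rats they were highest without rat 23 (1387), where list genes and members called numbered 6. Between bPYX+GFP and naïve rats they were highest without rat 57 (595), where list genes and members called numbered 7. The labels state no pairing by replicate number, and whether the numbers pair the rats was not tested. Same-numbered rats of different groups correlated from -0.402 to 0.534, and those of the naïve and bPYX+NT3 groups at 0.332, 0.534, -0.303, 0.487, 0.286 and 0.405. With a replicate block the counts were 4, 21 and 3, and those over all genes 316, 2962 and 130 in place of 377, 703 and 201. At 19 to 54 reads for *Ahrr* and 0 to 8 for *Cyp1a1*, depth limits both.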
